A study of Mus musculus with 23 samples.

Results

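Mapkapk2, Ctse, Pm20d1, Elk4, Cdk18, Dstyk, Golt1a, Ren1, Sox13 and Ppfia4 are 10 protein-coding genes that lie downstream of Il10 on mouse chromosome 1. They were picked by symbol from the 24440 genes of the deposited counts table because their liver RNA differed between genotypes in earlier results of the same libraries, and because they lie between 130 and 140 Mb of the mm10 build. The genotype levels therefore chose the genes: they are given here as a description, and where calls of the fit are counted for them, nothing is read from the counts. The diet effects within a genotype, which the choice did not use, are given with tests. All 10 genes were among the 12891 that passed the filter on low counts, Ppfia4 only through its counts in the knockout groups.

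The study measured RNA by sequencing of perfused livers of male mice from Taconic Farms, obtained at 6 to 8 weeks of age, all on a C57Bl/6 background per the labels. The IL-10/IL-4 double knockout mice (dKO) lack Il10 and Il4, the IL-4 knockout mice (IL4KO) lack Il4, and the wild type mice (WT) carry neither deletion. Each genotype was fed either a high-fat diet (HFD) with 60% of its energy from fat or normal chow, for 15 weeks. The groups were dKO_HFD (4 livers), dKO_chow (4), IL4KO_HFD (3), IL4KO_chow (4), WT_HFD (4) and WT_chow (4), with 1 library per mouse. The deletions are present in every cell of a mouse, and the dKO mice also carry whatever stretch of chromosome 1 came with the deleted Il10 allele. In dKO the effect of the deletion and that of the flanking DNA cannot be told apart for genes this close to Il10. This does not cover IL4KO against WT, since neither of these genotypes carries an Il10 deletion per the labels. The cause of differences between IL4KO and WT at these genes was not tested. The sources used here do not state where the knockout alleles came from or how many backcrosses were made.

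When a gene is deleted in embryonic stem cells and the allele is bred onto another strain, the DNA on either side of the deletion is inherited with it, and shrinks only as recombination breaks it up over generations. Neighbouring genes may then differ between a knockout line and its wild type whether or not the deleted gene controls them. Il10 encodes an anti-inflammatory cytokine, and mice without it are prone to bowel inflammation. Il4, a cytokine of type 2 immunity, lies on another chromosome.

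The 10 genes span 3.28 Mb. In order along the chromosome (GRCm38, the mm10 assembly, GENCODE annotation) the first is Mapkapk2 at chr1:131053700-131097826 on the minus strand, with its start site 0.078 Mb from that of Il10 (chr1:131019845-131024974, plus strand). Ctse follows at chr1:131638306-131675505, Pm20d1 at chr1:131797381-131821473 and Elk4 at chr1:132007607-132032612, all on the plus strand. Cdk18 lies at chr1:132112237-132139684 on the minus strand and Dstyk at chr1:132417555-132466958 on the plus strand. Golt1a (chr1:133309800-133323026, plus), Ren1 (chr1:133350510-133360325, plus) and Sox13 (chr1:133382303-133424377, minus) are close neighbours, with start sites 2.29, 2.33 and 2.40 Mb from that of Il10. Ppfia4 is the most distant, at chr1:134296783-134332928 on the minus strand, 3.31 Mb from Il10.

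Some of these genes share their DNA with others. Elk4, Cdk18 and Dstyk are each overlapped by a gene on the opposite strand (Mfsd4a, Gm29629 and 6030442K20Rik), and whether the counting used strand is not given in the sources used here, so reads of the antisense partner cannot be told apart. Elk4 overlaps Gm29103 and Golt1a overlaps Kiss1 and Gm28040 on their own strand, and Mapkapk2 overlaps 2 small predicted genes, so reads may have been split there. No annotated gene overlaps Ctse, Pm20d1, Ren1, Sox13 or Ppfia4.

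The promoters of Golt1a, Ren1 and Sox13 are shown because these genes sit side by side and their RNA differed between IL4KO and WT in opposite directions. Each line holds the 250 bases before the start site in RefSeq (GRCm38.p6), read 5′ to 3′ on the strand of the gene, with matches to a searched motif in capitals. The RefSeq start sites of Golt1a, Ren1 and Sox13 lie 23, 164 and 165 bases inside the gene as the GENCODE annotation places it. Part of each stretch is therefore within the GENCODE gene. Golt1a is chr1:133309573-133309822 (plus), Ren1 is chr1:133350424-133350673 (plus) and Sox13 is chr1:133424213-133424462 (minus).
Golt1a: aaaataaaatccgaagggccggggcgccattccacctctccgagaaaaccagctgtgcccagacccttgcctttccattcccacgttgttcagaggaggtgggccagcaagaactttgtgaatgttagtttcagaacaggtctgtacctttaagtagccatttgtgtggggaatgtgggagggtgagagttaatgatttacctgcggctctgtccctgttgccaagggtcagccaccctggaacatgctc
Ren1: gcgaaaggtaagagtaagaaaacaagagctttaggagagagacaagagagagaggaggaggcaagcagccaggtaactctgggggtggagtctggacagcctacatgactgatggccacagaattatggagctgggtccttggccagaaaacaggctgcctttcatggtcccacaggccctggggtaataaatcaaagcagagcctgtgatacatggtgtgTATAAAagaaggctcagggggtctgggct
Sox13: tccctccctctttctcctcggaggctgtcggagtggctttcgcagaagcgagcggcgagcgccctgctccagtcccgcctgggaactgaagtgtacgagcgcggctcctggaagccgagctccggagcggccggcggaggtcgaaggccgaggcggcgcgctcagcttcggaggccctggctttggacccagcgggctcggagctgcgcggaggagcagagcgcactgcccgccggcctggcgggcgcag
Only the Ren1 stretch of these 3 held a match. It is a TATA box (TATAAA), 29 to 24 bases before the start site, and 12.4% of 32851 RefSeq promoter stretches of this length hold that motif on either strand. The other motifs searched on both strands were CRE (TGACGTCA), its core (TGACG, which overlaps every CRE), GC box (GGGCGG), E-box (CACGTG) and CCAAT box (CCAAT), held by 1.55%, 17.8%, 32.7%, 6.02% and 33.8% of those stretches. RefSeq stretches were found for 8 of the 10 genes. Beside Ren1, Elk4 held a CRE core and Cdk18 an E-box and a CCAAT box. These are sequences of the reference strain and say nothing of the alleles the mice carried.

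Library totals, to 6 digits, ran from 12692800 to 25460200 estimated counts in dKO_HFD, 16220800 to 30205100 in dKO_chow, 7788330 to 8935350 in IL4KO_HFD, 7114460 to 11179700 in IL4KO_chow, 8601870 to 18240400 in WT_HFD and 10879000 to 12546500 in WT_chow. Il10 itself went against its label. It had 6 to 21 counts in dKO_HFD libraries and 41 to 67 in dKO_chow libraries, against 0 in IL4KO_HFD, 0 to 2 in IL4KO_chow, 0 to 4 in WT_HFD and 0 to 2 in WT_chow, and counts per gene do not show which exons were deleted. Il4 had 0 to 1 counts in dKO_HFD libraries, 0 to 3 in dKO_chow and 0 to 1 in IL4KO_HFD, against 0 in every IL4KO_chow and WT library, and was not tested. All of its few reads thus lay in libraries labelled as lacking Il4. Every statement on dKO and IL4KO is therefore about libraries so labelled. Markers of some other cells, though not of all, were raised in dKO_chow. The 13 neutrophil markers summed to 1260 to 1795 CPM there (estimated counts scaled to a common library size), against 19.1 to 484 in dKO_HFD and 7.79 to 136 in the IL4KO and WT libraries. The 12 Kupffer cell and macrophage markers summed to 1105 to 1372 CPM in dKO_chow and to 353 to 805 CPM elsewhere, and the 11 cholangiocyte markers to 471 to 852 CPM in dKO_chow and 38.9 to 310 CPM elsewhere. The 13 endothelial and stellate cell markers overlapped between the genotypes on chow, at 539 to 670 CPM in dKO, 503 to 611 CPM in IL4KO and 543 to 617 CPM in WT. On HFD they were at 500 to 613 CPM in dKO, 584 to 1115 CPM in IL4KO and 694 to 859 CPM in WT. The 12 hepatocyte markers summed on chow to 97392 to 117938 CPM in dKO, 108901 to 133229 CPM in IL4KO and 130718 to 134248 CPM in WT. On HFD their order was another, with 144613 to 154300 CPM in dKO, 94537 to 140021 CPM in IL4KO and 119809 to 138863 CPM in WT. Cholangiocyte markers were also higher in dKO on HFD: of 10 tested, 8 were called higher in dKO than in WT and 4 higher in dKO than in IL4KO on both diets. The part of these cells in any level below was not tested, and in whole liver RNA fewer cells of a type and less RNA per cell cannot be told apart.

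Of the enzymes that act outside the cytosol, Ren1 and Ctse showed one pattern: both were present in dKO and WT livers and nearly absent from IL4KO livers, on either diet. Ren1 encodes renin, the protease that cuts angiotensinogen and starts the renin-angiotensin cascade, and is best known from the kidney. Its levels were 17.6, 45.7, 36.1 and 2.81 CPM in dKO_HFD and 9.43, 12.5, 17.3 and 10.8 CPM in dKO_chow. In IL4KO they were 0.114, 0 and 0.135 CPM on HFD and 0.0927, 0.0903, 0 and 0 CPM on chow. WT livers had 15.9, 25.6, 34.7 and 22.1 CPM on HFD and 39.7, 28.1, 33.4 and 24.6 CPM on chow. Every dKO and every WT library was above all 7 IL4KO libraries, which held 2 Ren1 counts in each diet group.

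Set against those 2 counts, Ren1 was 376-fold higher in dKO_HFD than in IL4KO_HFD (95% exact interval 104 to 3111) and 222-fold higher in dKO_chow than in IL4KO_chow (61.3 to 1835). IL4KO_HFD was 292-fold below WT_HFD (80.7 to 2415), and IL4KO_chow was 565-fold below WT_chow (156 to 4671). These intervals come from the summed counts of each group and cover counting error only, not the spread between mice. Between dKO and WT the Ren1 libraries overlapped on HFD, where the means were 25.6 ± 19.1 CPM in dKO and 24.6 ± 7.84 CPM in WT (SD, n = 4 each). They did not overlap on chow, at 12.5 ± 3.45 CPM in dKO and 31.4 ± 6.58 CPM in WT, a log2 difference of -1.33 (SE 0.466). Ren1 has a near-copy in Ren2, a second renin gene that some mouse strains carry and C57BL/6 does not, so reads could be split between the 2 symbols. Ren2 had 0 to 19 counts in dKO_HFD, 0 to 9 in dKO_chow, 0 in every IL4KO library, 0 to 18 in WT_HFD and 4 to 10 in WT_chow.

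Ctse encodes cathepsin E, an aspartic protease of the endosomes found in gastric epithelium and immune cells. The 10 markers of pancreas, stomach, kidney and adipose tissue summed to 4.73 to 25.6 CPM in a library, with 5 to 8 of them at 0 in each group. Its levels were 126, 81.4, 139 and 29.8 CPM in dKO_HFD and 20.9, 23.4, 25.8 and 21.5 CPM in dKO_chow. IL4KO livers had 1.37, 1.23 and 0.405 CPM on HFD and 0.556, 0.181, 0 and 0.279 CPM on chow. In WT they were 295, 187, 271 and 205 CPM on HFD and 71.9, 63.1, 73.9 and 62.0 CPM on chow. On each diet the order was IL4KO, dKO, WT from low to high, with no overlap between any 2 genotypes.

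The log2 difference of Ctse between dKO and WT was -1.34 (SE 0.306) on HFD and -1.56 (SE 0.316) on chow, and that between dKO and IL4KO was 6.50 (SE 0.546) on HFD and 6.33 (SE 0.616) on chow. Between IL4KO and WT it was -7.85 (SE 0.551) on HFD and -7.89 (SE 0.582) on chow. In each pair the differences on the 2 diets were closer to each other than their SE. Ctse had 26 counts in all of IL4KO_HFD and 10 in all of IL4KO_chow, so the size of its gap to the other genotypes is known only to within the intervals: 64.3 to 145-fold for dKO over IL4KO on HFD and 44.7 to 172-fold on chow. In dKO_HFD replicate 4 both Ctse (29.8 CPM) and Ren1 (2.81 CPM) were lowest of their group, and without that library the dKO_HFD means were 115 ± 30.2 CPM for Ctse and 33.1 ± 14.3 CPM for Ren1 (SD, n = 3). This library stood apart in more than these genes. Over all tested genes it correlated at 0.963 to 0.966 with the other dKO_HFD libraries, which correlated at 0.986 to 0.989 with each other. Cdk18 (34.7 CPM) was also lowest in it and Ppfia4 (1.80 CPM) highest.

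**Figure D1:**
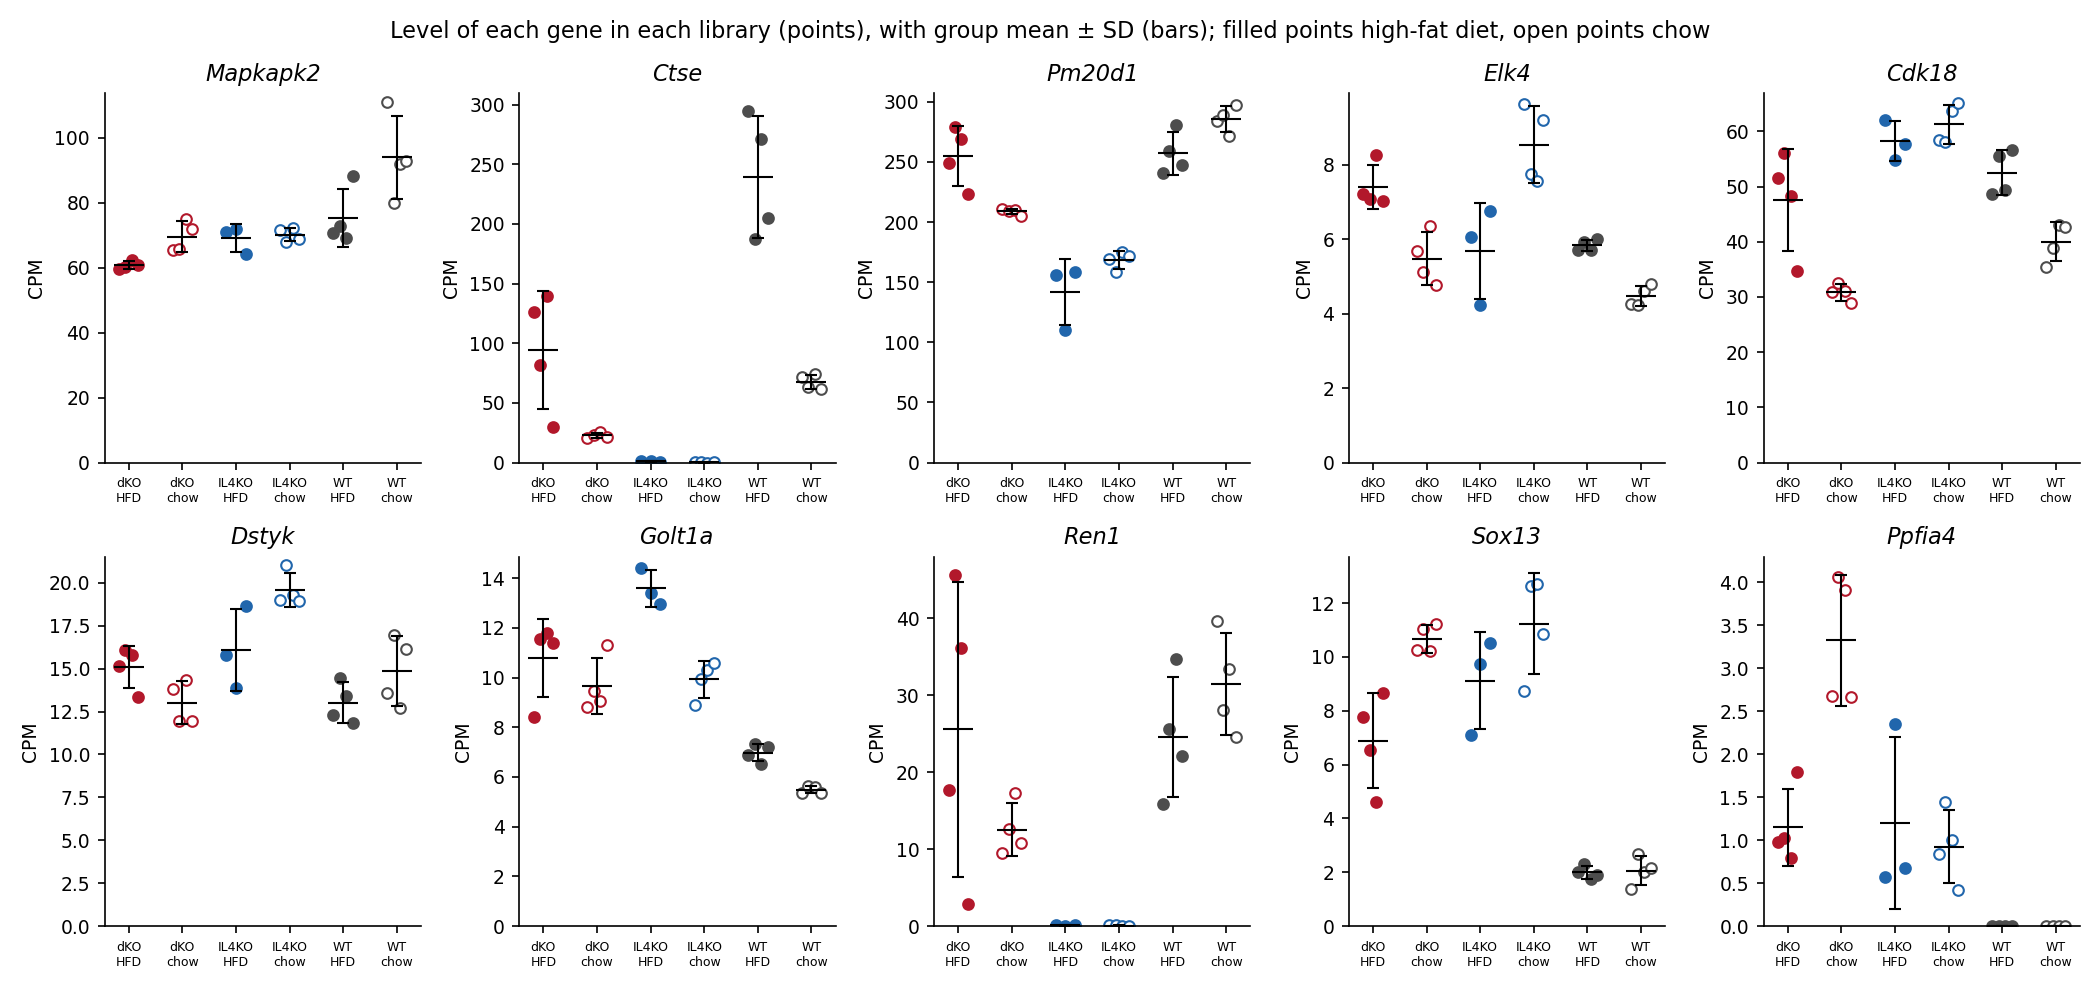
Level of each of the 10 genes in CPM (linear axes from 0) in every library, by group, with the group mean and SD; filled points are HFD and open points chow, and genes run in chromosome order. Ctse and Ren1 sit near 0 in all 7 IL4KO libraries, Ppfia4 is at 0 in all 8 WT libraries, and Sox13 and Golt1a are lower in WT than in either knockout.

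Pm20d1 encodes a secreted enzyme that joins and splits fatty acids and amino acids to form or remove N-acyl amino acids. It was lowest in IL4KO on both diets. Its levels were 249, 279, 269 and 223 CPM in dKO_HFD, 156, 110 and 159 CPM in IL4KO_HFD, and 240, 259, 281 and 248 CPM in WT_HFD. On chow they were 211, 210, 210 and 205 CPM in dKO, 169, 158, 175 and 172 CPM in IL4KO, and 284, 289, 271 and 297 CPM in WT. IL4KO did not overlap dKO or WT on either diet. dKO overlapped WT on HFD and lay below it on chow.

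Expressed as log2 differences, Pm20d1 was 0.85 (SE 0.103) higher in dKO than in IL4KO on HFD and 0.31 (SE 0.0933) higher on chow. Between IL4KO and WT it was -0.86 (SE 0.103) on HFD and -0.76 (SE 0.0938) on chow, and between dKO and WT -0.01 (SE 0.0929) on HFD and -0.45 (SE 0.093) on chow. Pm20d1 thus shared with Ren1 and Ctse the lowest level in IL4KO, but its range was small: the IL4KO means were 142 ± 27.5 CPM (SD, n = 3) on HFD and 168 ± 7.20 CPM (SD, n = 4) on chow.

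Mapkapk2 is the member closest to Il10 and encodes MK2, a kinase that p38 MAP kinase activates and that steadies the messenger RNAs of inflammatory cytokines. Its levels were 59.5, 60.2, 62.3 and 60.8 CPM in dKO_HFD, 71.1, 72.0 and 64.1 CPM in IL4KO_HFD and 70.8, 73.0, 69.2 and 88.4 CPM in WT_HFD. On chow they were 65.4, 65.7, 75.0 and 71.9 CPM in dKO, 71.5, 68.0, 72.2 and 68.8 CPM in IL4KO, and 111, 80.1, 92.0 and 92.9 CPM in WT. dKO lay below WT without overlap on both diets, with log2 differences of -0.31 (SE 0.0851) on HFD and -0.44 (SE 0.0847) on chow. IL4KO lay below WT without overlap on chow, at -0.42 (SE 0.0858), and overlapped it on HFD. Without WT_HFD replicate 4, the highest library, the HFD difference between dKO and WT was -0.23.

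For the other kinases, Cdk18 and Dstyk, libraries of some genotypes lay apart on chow, while all genotypes overlapped on HFD. Cdk18 is a cyclin-dependent kinase of the PCTAIRE group, and Dstyk is a dual-specificity kinase of the RIP-like family. Cdk18 had 30.9, 32.6, 31.1 and 28.9 CPM in dKO_chow, 58.5, 58.1, 63.6 and 65.0 CPM in IL4KO_chow and 35.4, 38.9, 43.0 and 42.8 CPM in WT_chow. Dstyk had 13.8, 11.9, 14.4 and 12 CPM in dKO_chow, 19, 21, 19.3 and 18.9 CPM in IL4KO_chow and 13.6, 17, 12.7 and 16.2 CPM in WT_chow. Both were highest in IL4KO on chow without overlap, while dKO lay below WT for Cdk18 and overlapped it for Dstyk.

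For Cdk18 on chow the log2 difference was -0.99 (SE 0.104) between dKO and IL4KO, 0.61 (SE 0.105) between IL4KO and WT, and -0.37 (SE 0.104) between dKO and WT. For Dstyk it was -0.59 (SE 0.105) between dKO and IL4KO, 0.40 (SE 0.107) between IL4KO and WT and -0.20 (SE 0.105) between dKO and WT. Leaving out 1 library at a time moved the Dstyk difference between IL4KO and WT to between 0.32, without WT_chow replicate 3, and 0.46, without WT_chow replicate 2. On HFD the libraries of every pair of genotypes overlapped for both genes. There the log2 difference of Cdk18 was -0.29 (SE 0.111) between dKO and IL4KO, 0.15 (SE 0.112) between IL4KO and WT and -0.14 (SE 0.102) between dKO and WT. That of Dstyk was -0.08 (SE 0.116), 0.31 (SE 0.118) and 0.22 (SE 0.105) in the same order. For Dstyk the estimate in IL4KO thus lay above that in WT on both diets. Cdk18 averaged 47.6 ± 9.18 CPM in dKO_HFD (n = 4), 58.2 ± 3.62 CPM in IL4KO_HFD (n = 3) and 52.5 ± 4.11 CPM in WT_HFD (n = 4, SD). Dstyk averaged 15.1 ± 1.22 CPM in dKO_HFD, 16.1 ± 2.40 CPM in IL4KO_HFD and 13 ± 1.18 CPM in WT_HFD, with the same n.

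Of the transcription factors, Sox13 was lowest in WT and higher in both knockouts, whereas its neighbour Ren1 was lowest in IL4KO. Sox13 belongs to the SoxD group, which lacks an activation domain of its own. It had 7.75, 6.55, 4.60 and 8.67 CPM in dKO_HFD, 7.09, 9.72 and 10.5 CPM in IL4KO_HFD and 2.02, 2.31, 1.75 and 1.91 CPM in WT_HFD. On chow it had 10.2, 11, 10.2 and 11.2 CPM in dKO, 8.72, 12.6, 12.7 and 10.9 CPM in IL4KO and 1.39, 2.69, 1.99 and 2.161 CPM in WT. No knockout library overlapped a WT library of the same diet, and dKO and IL4KO overlapped each other on both diets.

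Sox13 was 1.76 (SE 0.201) higher on the log2 scale in dKO than in WT on HFD and 2.36 (SE 0.200) higher on chow. It was 2.17 (SE 0.218) higher in IL4KO than in WT on HFD and 2.43 (SE 0.206) higher on chow. The differences between dKO and IL4KO, -0.41 (SE 0.194) on HFD and -0.07 (SE 0.171) on chow, were smaller than these. The summed cholangiocyte markers were at 111 to 310 CPM in dKO_HFD, 44.5 to 173 CPM in IL4KO_HFD and 72.3 to 107 CPM in WT_HFD, so dKO and IL4KO overlapped on HFD. On chow they were at 471 to 852 CPM in dKO, 38.9 to 45.4 CPM in IL4KO and 46.3 to 54 CPM in WT.

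Elk4 encodes a ternary complex factor, which binds DNA together with SRF at promoters of immediate early genes. It had 5.70, 5.11, 6.36 and 4.76 CPM in dKO_chow, 9.65, 7.77, 7.58 and 9.19 CPM in IL4KO_chow and 4.25, 4.24, 4.62 and 4.79 CPM in WT_chow. On HFD the levels were 7.23, 7.09, 8.27 and 7.03 CPM in dKO, 6.06, 4.25 and 6.75 CPM in IL4KO and 5.70, 5.93, 5.72 and 6.00 CPM in WT. The highest group thus changed with the diet: IL4KO on chow and dKO on HFD, in each case without overlap with the other genotypes. The chow log2 differences were -0.65 (SE 0.129) between dKO and IL4KO and 0.93 (SE 0.137) between IL4KO and WT. On HFD those differences were 0.39 (SE 0.146) and -0.05 (SE 0.150).

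Ppfia4 and Golt1a have roles in scaffolding and transport. Ppfia4 encodes liprin-alpha-4, a scaffold protein described at synapses, and Golt1a a small membrane protein of Golgi vesicle transport. Ppfia4 had 0 counts in all 8 WT libraries. Its levels were 0.979, 1.03, 0.789 and 1.80 CPM in dKO_HFD and 2.68, 4.06, 3.91 and 2.66 CPM in dKO_chow, and 0.571, 2.35 and 0.675 CPM in IL4KO_HFD and 0.835, 1.44, 1 and 0.418 CPM in IL4KO_chow. All 15 knockout libraries held Ppfia4 reads, at low levels. With a floor of 3 counts over the WT group, Ppfia4 was at least 19.6-fold higher in dKO_HFD than in WT_HFD and at least 50.7-fold higher in dKO_chow than in WT_chow. It was at least 22.3-fold higher in IL4KO_HFD than in WT_HFD and at least 14.5-fold higher in IL4KO_chow than in WT_chow. dKO exceeded IL4KO on chow, with a log2 difference of 1.80 (SE 0.408) and no overlap, and overlapped it on HFD.

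Golt1a had 8.43, 11.5, 11.8 and 11.4 CPM in dKO_HFD, 14.4, 13.4 and 13 CPM in IL4KO_HFD and 6.88, 7.31, 6.54 and 7.20 CPM in WT_HFD. On chow it had 8.81, 9.47, 9.04 and 11.3 CPM in dKO, 8.90, 9.93, 10.3 and 10.6 CPM in IL4KO and 5.36, 5.63, 5.62 and 5.36 CPM in WT. Both knockouts lay above WT without overlap on both diets, by 0.63 (SE 0.108) on HFD and 0.81 (SE 0.111) on chow for dKO and by 0.96 (SE 0.118) on HFD and 0.85 (SE 0.116) on chow for IL4KO, on the log2 scale.

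A gene was called in a comparison when its false discovery rate (FDR) in edgeR's quasi-likelihood fit, adjusted over all 12891 tested genes, was below 0.05. In the comparisons of genotypes these calls used the values that chose the genes, so nothing is read from them. In dKO against WT, 5 of the 10 genes were called on HFD (background 24.5% of all tested genes) and 8 on chow (background 46.3%). In dKO against IL4KO, 3 were called on HFD (background 2.51%) and 7 on chow (background 45.2%). In IL4KO against WT, 6 were called on HFD (background 3.02%) and all 10 on chow (background 9.61%). The libraries did not overlap for 6 genes in dKO_HFD against WT_HFD (background 25.0%), 8 in dKO_chow against WT_chow (43.9%), 6 in dKO_HFD against IL4KO_HFD (11.4%) and 7 in dKO_chow against IL4KO_chow (45.8%). They did not overlap for 6 in IL4KO_HFD against WT_HFD (13.6%) and for all 10 in IL4KO_chow against WT_chow (18.5%). With only dKO_HFD and IL4KO_HFD in the fit, edgeR called 0 of the 10 genes at FDR below 0.05 (5 at an unadjusted p below 0.05) and 4 of all genes, though Ctse kept a log2 difference of 6.50. DESeq2 called 3 of the 10 in that comparison. In the same kind of fit of dKO_HFD with WT_HFD alone, Ctse kept -1.35 and was not called. Single libraries also decided some of these calls. Dstyk was not called in IL4KO_chow against WT_chow without IL4KO_chow replicate 2 (0.36), WT_chow replicate 1 (0.35) or WT_chow replicate 3 (0.32). Ren1 was not called in dKO_chow against WT_chow without WT_chow replicate 1 or dKO_chow replicate 1, 2 or 4 (-1.35 to -1.22), by limma on the deposited log2 values (-1.22) or with only those 2 genotypes in the fit (-1.35). Mapkapk2 was not called in dKO_HFD against WT_HFD without WT_HFD replicate 4. Calls were gained by Elk4 in dKO_HFD against IL4KO_HFD without IL4KO_HFD replicate 3 (0.52) and in dKO_HFD against WT_HFD with only those 2 genotypes in the fit (0.34), and by Dstyk in dKO_chow against WT_chow without WT_chow replicate 3 (-0.28).

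For 7 of the 10 genes at least 1 genotype difference was called with one sign on both diets. In dKO against WT these were Sox13, Ppfia4 and Golt1a, which were higher, and Ctse and Mapkapk2, which were lower (5 of 10, background 11%). In dKO against IL4KO they were Ctse, Ren1 and Pm20d1, all higher (3 of 10, background 1.37%). None of these 3 was called on HFD by edgeR with only dKO_HFD and IL4KO_HFD in the fit. In IL4KO against WT they were Sox13, Ppfia4 and Golt1a, higher, and Ctse, Ren1 and Pm20d1, lower (6 of 10, background 1.42%). Their libraries did not overlap between the genotypes on either diet (backgrounds 10.2% for dKO against WT, 4.31% for dKO against IL4KO and 3.94% for IL4KO against WT). For Elk4, Cdk18 and Dstyk no genotype difference was called on both diets. The 3 pairs share libraries, so their counts are not independent of each other.

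**Figure D2:**
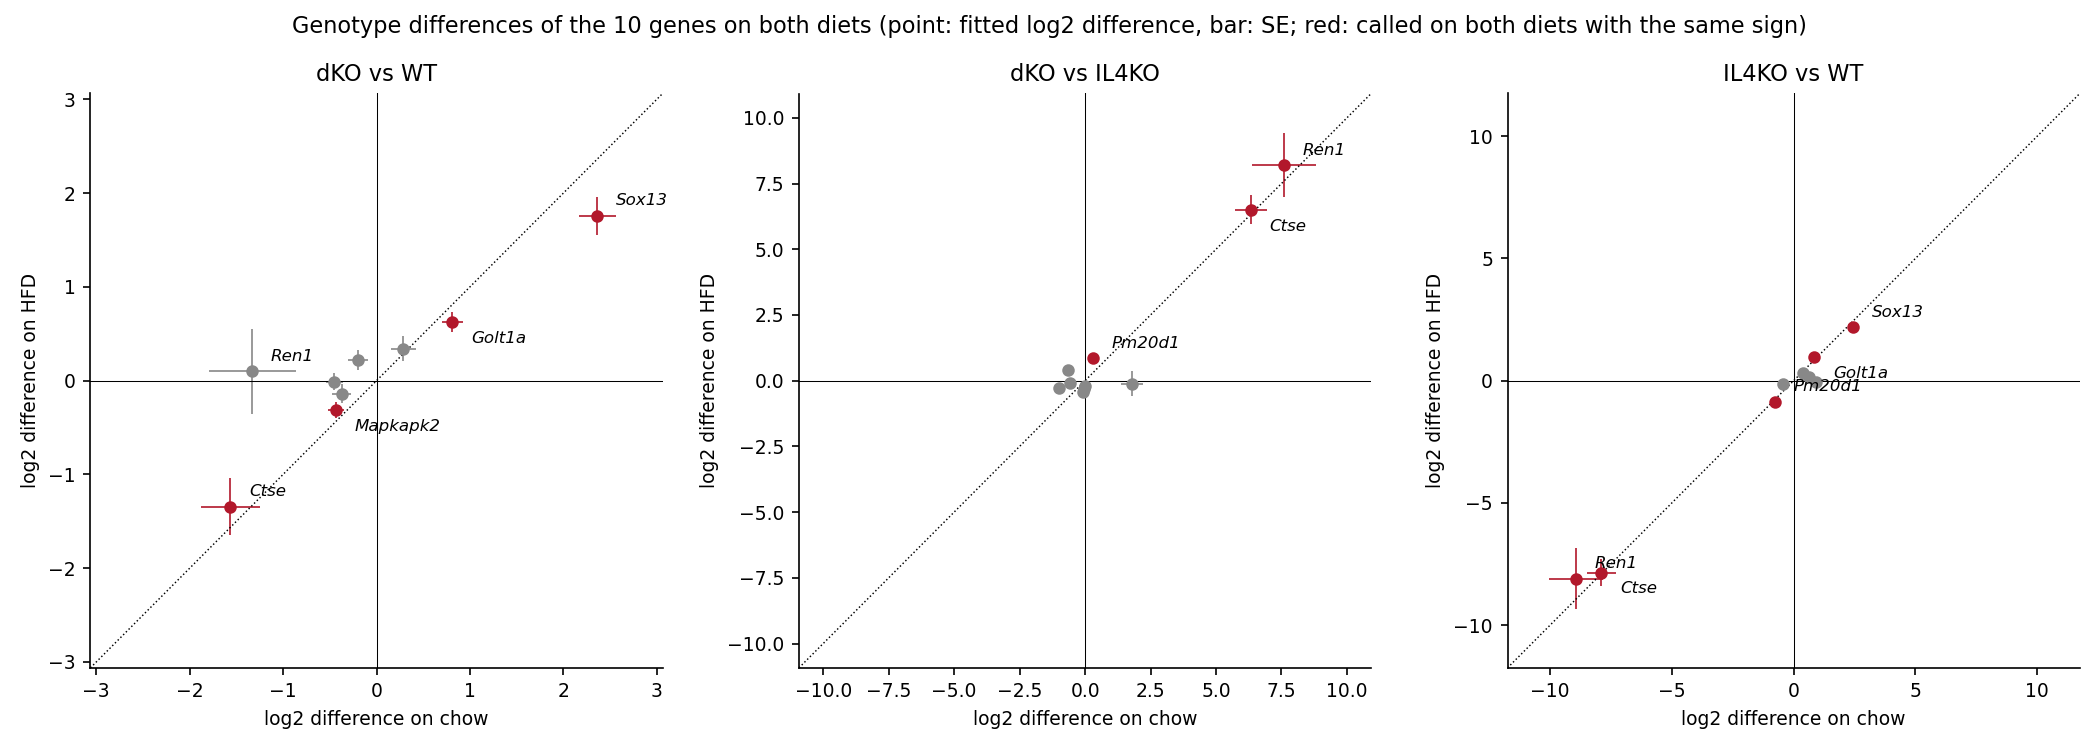
Fitted log2 difference on chow (x axis) and on HFD (y axis) of the 10 genes in each pair of genotypes, with SE; red marks a gene called on both diets with one sign, and the dotted line marks equal differences. Ppfia4 is left out against WT, where it had 0 counts, and Ren1 rests on 2 counts in each IL4KO group. Ctse and Ren1 lie at the top right in dKO against IL4KO and at the bottom left in IL4KO against WT.

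Across the 23 libraries, the log2 CPM of Ctse and Ren1 correlated at r = 0.948, that of Ren1 and Pm20d1 at 0.908, and that of Sox13 and Ppfia4 at 0.909. After the group means were taken out these correlations were 0.520, 0.597 and 0.373. Sox13 and Ctse correlated at -0.716 across libraries. All of these are descriptions over 23 libraries that share groups and depth.

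Diet moved some of the genes within a genotype. In dKO, HFD against chow called 4 of the 10 genes higher and 2 lower (backgrounds 19.4% and 20.5%, 40.0% in all). In IL4KO it called 1 higher and 1 lower (backgrounds 5.14% and 3.94%, 9.08% in all), and in WT 3 higher and 1 lower (backgrounds 9.63% and 9.84%, 19.5% in all). The libraries of the diets did not overlap for 7 of the 10 genes in dKO (background 31.6%), 3 in IL4KO (19.6%) and 4 in WT (24.3%). With 10 genes, these counts do not set them apart from the background. Diet effects share libraries with the genotype differences above. Ctse rose on HFD in dKO, by 2.04 on the log2 scale (SE 0.317, edgeR FDR 0.000106), and in WT, by 1.82 (SE 0.312, edgeR FDR 0.000736). In IL4KO, at levels close to 0, the estimate was 1.87 with an SE of 1.13 (edgeR FDR 0.315), and DESeq2 called it (FDR 0.0405). The group means were 94.0 ± 49.5 CPM in dKO_HFD and 22.9 ± 2.19 CPM in dKO_chow, and 239 ± 51.5 CPM in WT_HFD and 67.7 ± 6.03 CPM in WT_chow (SD, n = 4 each), and in neither genotype did the diets overlap. The diet effects of Ctse in dKO and WT differed by 0.22 (SE 0.432).

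Ren1 had a diet estimate of 1.06 in dKO (SE 0.459, edgeR FDR 0.0733), which 1 library decided: without dKO_HFD replicate 4 it was 1.43 (edgeR FDR 0.000419). In WT the estimate was -0.37 (SE 0.460, edgeR FDR 0.627). Of the genes higher in the knockouts, Sox13 fell by 0.65 on HFD in dKO (SE 0.169, edgeR FDR 0.00441) and Ppfia4 fell by 1.57 in dKO (SE 0.366, edgeR FDR 0.00297). Ppfia4 averaged 1.15 ± 0.444 CPM in dKO_HFD and 3.33 ± 0.762 CPM in dKO_chow (SD, n = 4 each), without overlap. In IL4KO neither passed the test, with estimates of -0.30 (SE 0.196) for Sox13 and 0.35 (SE 0.516) for Ppfia4. The immune markers given above were also far higher in dKO_chow than in dKO_HFD, and their part in these falls was not tested.

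Golt1a rose on HFD in IL4KO by 0.46 (SE 0.119, edgeR FDR 0.0184) and in WT by 0.35 (SE 0.116, edgeR FDR 0.0366). The WT call was lost when any of its 8 libraries but WT_HFD replicate 3 was left out (0.32 to 0.36), with no filter on low counts (0.36), in a fit of the compared groups alone (0.35) and by DESeq2 (0.35), and the IL4KO call when any of IL4KO_HFD replicates 1 and 2 and IL4KO_chow replicate 1 was left out (0.41 to 0.48). Cdk18 rose in dKO by 0.63 (SE 0.103, edgeR FDR 8.82e-05) and in WT by 0.39 (SE 0.104, edgeR FDR 0.0105), and had an estimate of -0.07 (SE 0.113) in IL4KO. Elk4 rose in dKO by 0.44 (SE 0.125, edgeR FDR 0.00761) and fell by 0.60 in IL4KO (SE 0.150, edgeR FDR 0.0161). The Elk4 call in dKO was lost by limma on the deposited log2 values (0.30, limma FDR 0.0541). That in IL4KO was lost without IL4KO_HFD replicate 2 (-0.41) or IL4KO_chow replicate 1 (-0.52) and with only the compared groups in the fit (-0.57, edgeR FDR 0.105). Pm20d1 rose in dKO by 0.29 (SE 0.0929, edgeR FDR 0.0165), a call lost without dKO_HFD replicate 2 (0.25) and by limma on the deposited log2 values (0.22, limma FDR 0.0618). In IL4KO the Pm20d1 estimate was -0.25, called without IL4KO_HFD replicate 3 (-0.33). Mapkapk2 fell by 0.32 in WT (SE 0.0851, edgeR FDR 0.0114), although its WT libraries of the 2 diets overlapped. In dKO its estimate was -0.19, called by limma on the deposited log2 values (-0.26). The Golt1a estimate in dKO was 0.17, called without dKO_HFD replicate 1 (0.26). Dstyk passed the test in no genotype, with estimates of 0.22 (SE 0.102) in dKO, -0.29 (SE 0.118) in IL4KO and -0.20 (SE 0.108) in WT. It was called in dKO without dKO_HFD replicate 4 or dKO_chow replicate 3 (0.28 in both cases) and in IL4KO without IL4KO_HFD replicate 3 (-0.40).

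The difference between diet effects is the difference between genotype contrasts on the 2 diets, so it also rests on values that chose the genes. The diet effect of dKO differed from that of WT past the threshold for 2 of the 10 genes (background 25.2%) and from that of IL4KO for 5 (background 24.4%). Between IL4KO and WT edgeR called 0 of 10 (background 0.0465%; 3 at an unadjusted p below 0.05, and 1, Elk4, by DESeq2). For Elk4 the diet effect in dKO exceeded that in IL4KO by 1.04 (SE 0.195), with opposite signs in the 2 genotypes.

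**Figure D3:**
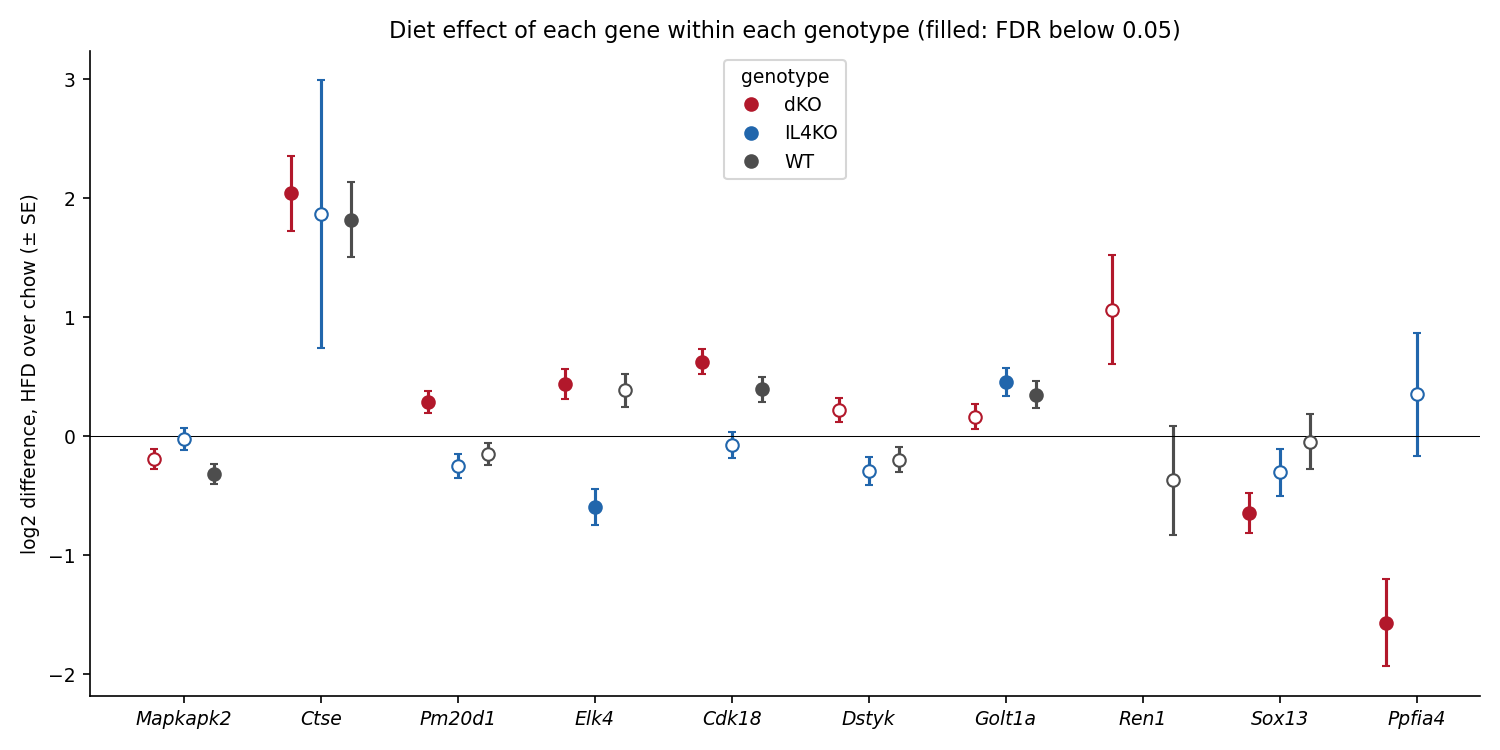
Log2 difference of HFD over chow, with SE, for each of the 10 genes in dKO, IL4KO and WT; filled points are below an FDR of 0.05. Ctse lies near 2 in all genotypes, with a wide error in IL4KO. Ppfia4 in WT and Ren1 in IL4KO are left out, since they had 0 counts and 2 counts per group.

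The neighbours of the 10 genes were read in the same fit. From the start of Il10 to the end of Ppfia4, 3.31 Mb, the annotation placed 56 symbols of the table, of which 42 were tested. On both diets with one sign, 10 of these 42 genes were called in dKO against WT, 6 in dKO against IL4KO and 7 in IL4KO against WT. Without the 10 genes, whose levels made the choice, and without Il10, 4, 2 and 1 of the remaining 31 were called (12.9%, 6.45% and 3.23%), against 11.1%, 1.31% and 1.39% of the 12355 tested genes with a position outside the stretch. Since the 10 genes were chosen because they differed, taking them out lowers the share left among the 31. Nothing is therefore read from setting it against the genes outside. In the 10 Mb before it, 6, 2 and 1 of 24 genes were called in these pairs. In the 10 Mb after it, 6 of 40 were called in dKO against WT, 0 in dKO against IL4KO (edgeR; 0 at an unadjusted p below 0.05 on both diets and 0 by DESeq2) and 4 in IL4KO against WT.

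Nuak2 and Rassf5 were the neighbours in the stretch that were called in dKO against IL4KO on both diets and did not overlap on either. Klhdc8a (log2 differences of 0.97 on HFD and 1.51 on chow), Pik3c2b (-0.84 and -0.60) and Atp2b4 (-0.24 and -0.42) did not overlap on either diet, but were called on chow only. Nuak2, an AMPK-related kinase gene, averaged 16.5 ± 6.51 CPM in dKO_HFD, 8.64 ± 1.96 CPM in IL4KO_HFD and 7 ± 1.19 CPM in WT_HFD. On chow it averaged 20.1 ± 2.17 CPM in dKO, 13 ± 2.57 CPM in IL4KO and 11.8 ± 1.66 CPM in WT. Rassf5, a Ras and Rap effector gene of lymphocytes, averaged 14.4 ± 3.11 CPM in dKO_HFD, 8.69 ± 0.505 CPM in IL4KO_HFD and 9.41 ± 0.517 CPM in WT_HFD. On chow Rassf5 averaged 17.9 ± 2.13 CPM in dKO, 12.1 ± 3.40 CPM in IL4KO and 12.1 ± 2 CPM in WT (SD, n = 3 in IL4KO_HFD and 4 elsewhere). Both were higher in dKO than in IL4KO (edgeR FDR 0.042 and 0.0455 on HFD, 0.0145 and 0.00566 on chow). Passing this threshold on both diets was part of the rule that named them, so nothing is read from these FDRs. On HFD this comparison called 323 of all genes, 4 with only the compared groups in the fit and 39 to 1241 without 1 library. Lymphocyte markers were also highest in dKO_chow, where the 14 T, NK and B cell markers in the table summed to 13.3 to 20.7 CPM, against 3.61 to 14.1 CPM in dKO_HFD and 2.159 to 8.76 CPM in the IL4KO and WT libraries.

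Genes named next were chosen after their values were seen. Etnk2, an ethanolamine kinase gene that starts just beyond Ren1, was higher in IL4KO than in WT on both diets, with 414 ± 127 CPM in IL4KO_HFD and 221 ± 51.7 CPM in WT_HFD, and 523 ± 26.4 CPM in IL4KO_chow and 238 ± 27.1 CPM in WT_chow (edgeR FDR 0.0333 and 0.0019). Its libraries overlapped on HFD and not on chow. On the same stretch Etnk2 was thus higher in IL4KO, where Ren1 was nearly absent. Gm4788, a predicted gene 8.76 Mb from Il10, had 286 ± 15.4 CPM in dKO_HFD, 252 ± 34.0 CPM in dKO_chow, 228 ± 65.0 CPM in IL4KO_HFD and 320 ± 9.42 CPM in IL4KO_chow, against 2 ± 0.602 CPM in WT_HFD and 2.27 ± 0.684 CPM in WT_chow. Its neighbour Cfhr2, a gene related to complement factor H, was also higher in the knockouts, at 647 ± 44.3 CPM in dKO_HFD, 564 ± 121 CPM in IL4KO_HFD and 214 ± 23.1 CPM in WT_HFD. Ddx59, an RNA helicase gene 5.40 Mb from Il10, went the other way, with 3.60 ± 0.326 CPM in dKO_HFD, 4.28 ± 0.342 CPM in IL4KO_HFD and 7.48 ± 0.989 CPM in WT_HFD. On the other side of Il10, Nckap5 was lower in both knockouts, with 0.172 ± 0.139 CPM in dKO_HFD, 0.278 ± 0.0538 CPM in IL4KO_HFD and 1.66 ± 0.356 CPM in WT_HFD. These means rest on few counts, 14 in all of dKO_HFD and 7 in all of IL4KO_HFD, against 94 in WT_HFD. Levels that differ between WT and both knockouts were also found at genes farther from Il10 than any of the 10.

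**Figure D4:**
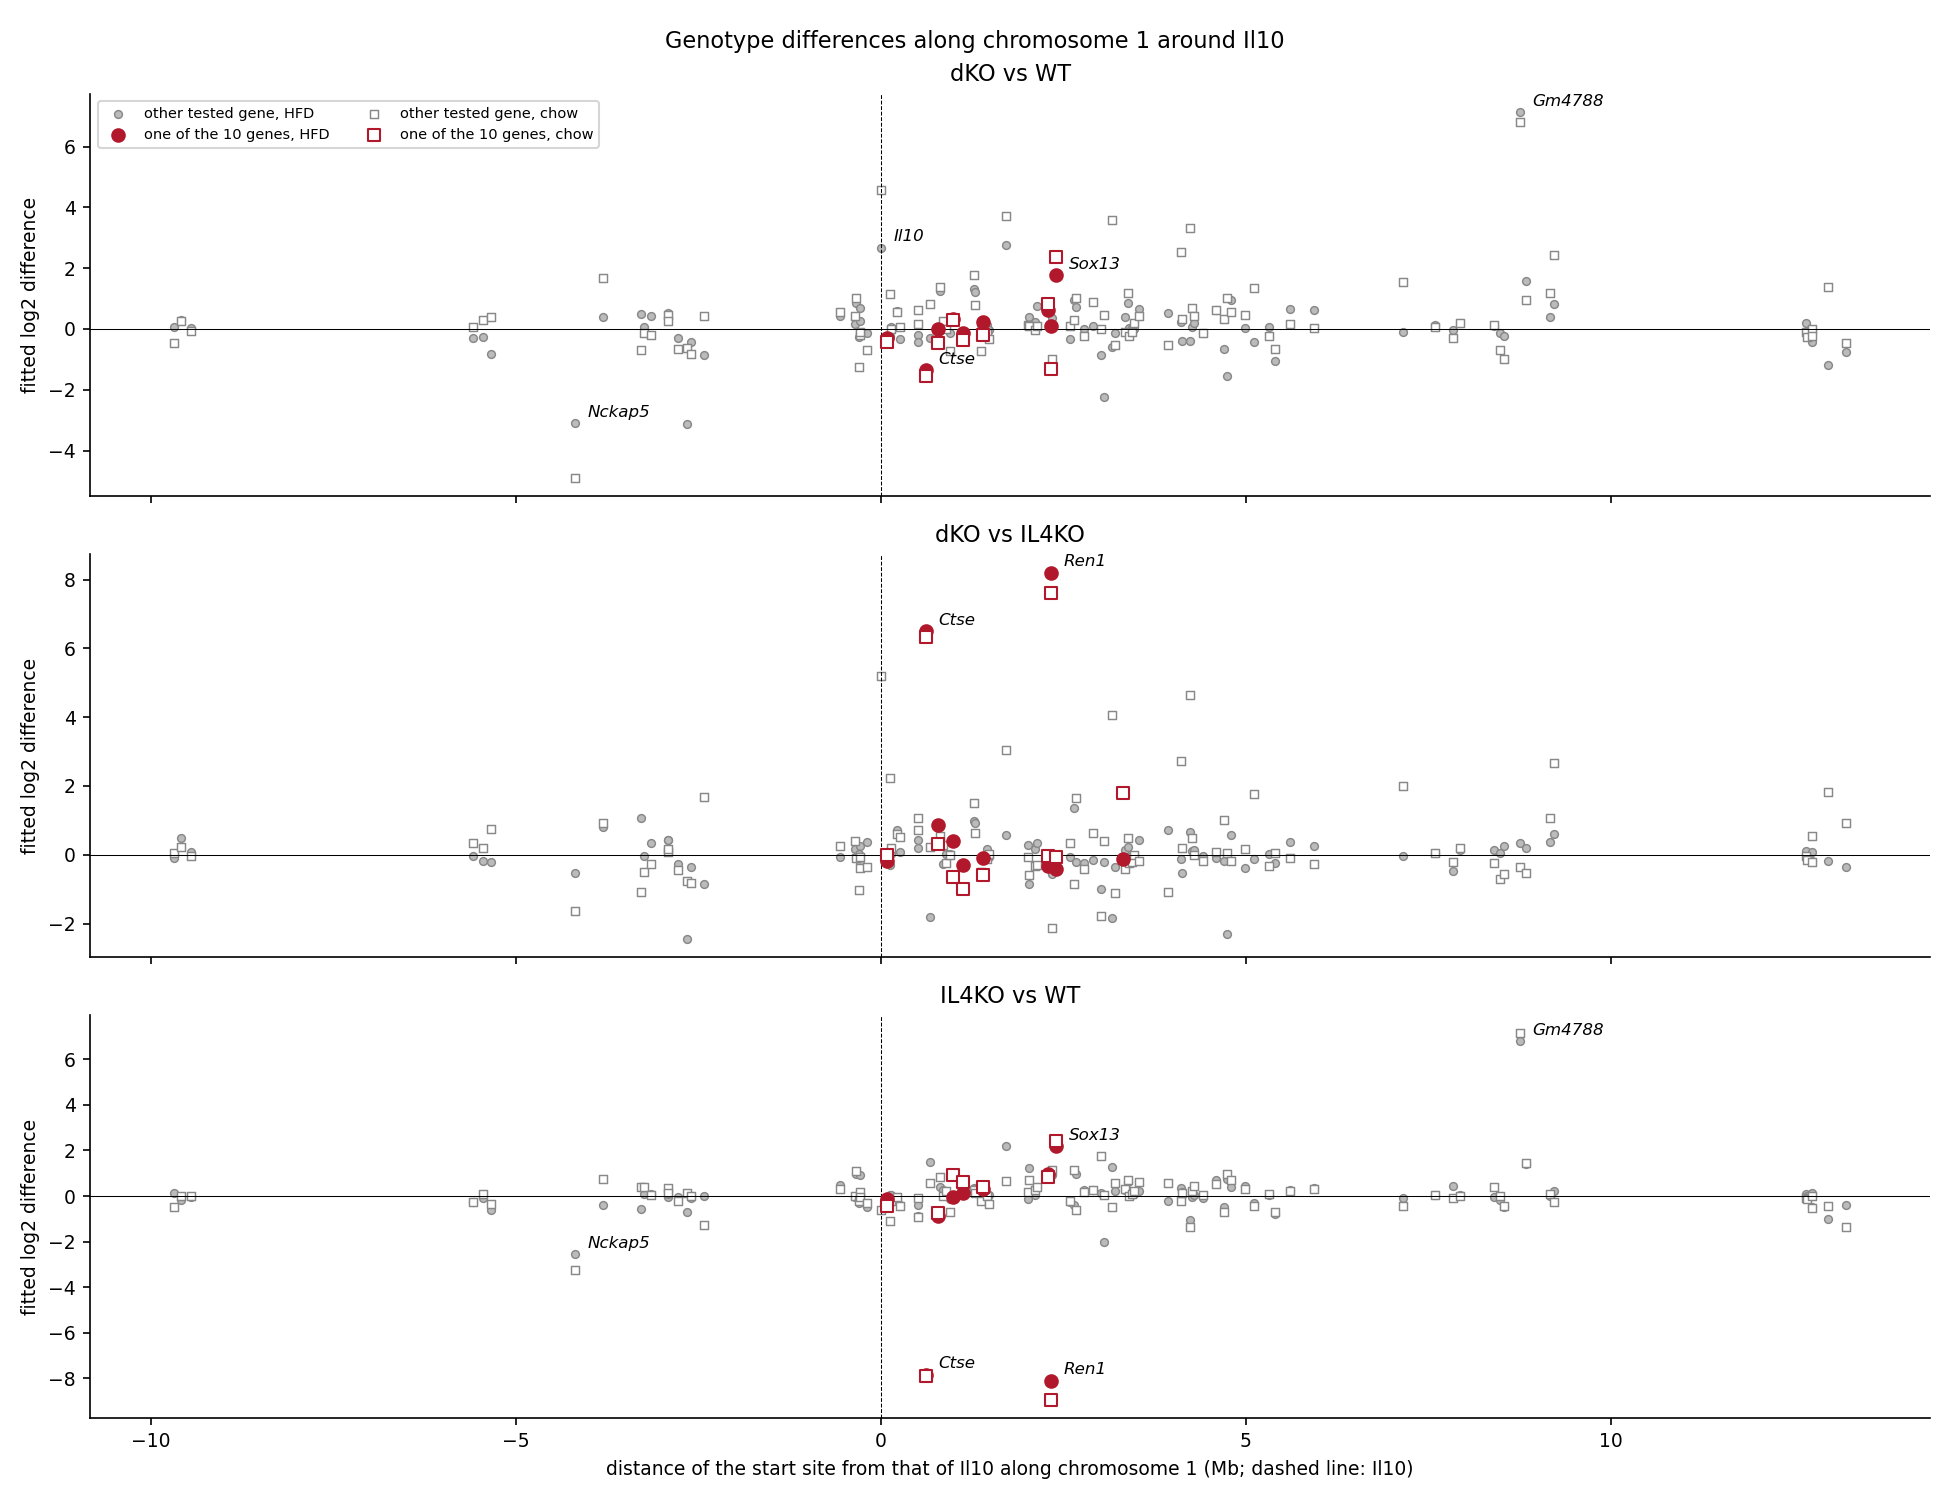
Fitted log2 difference of every tested gene within 10 Mb of the stretch against the distance of its start site from that of Il10 in Mb, for each pair of genotypes; circles are HFD, squares chow, and red marks the 10 genes. A gene is left out of a comparison in which 1 group had 0 counts, as Ppfia4 against WT. Gm4788 stands near 7 in both comparisons with WT, and Ctse and Ren1 are the lowest of the 10 genes in IL4KO against WT.

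**Figure D5:**
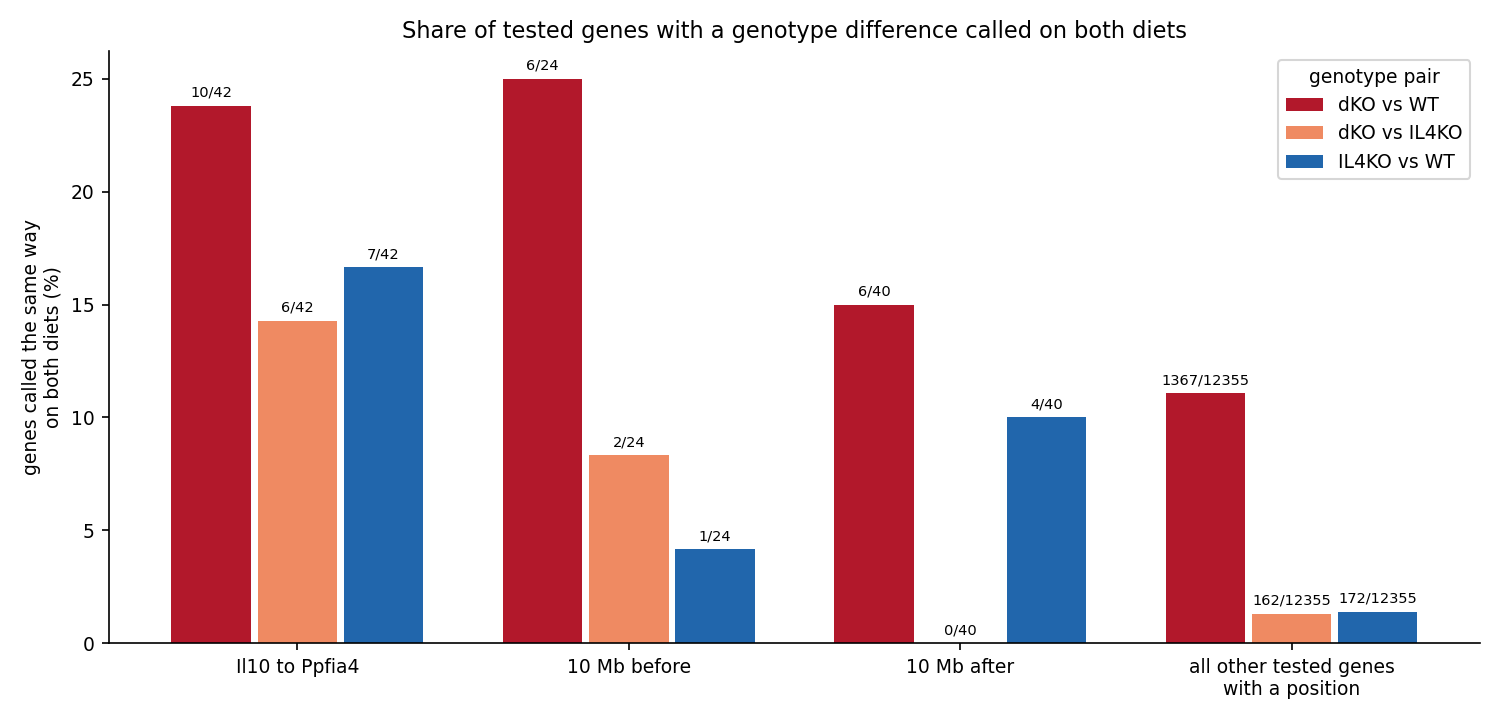
Share of tested genes called with one sign on both diets, in percent, in the stretch from Il10 to Ppfia4, in the 10 Mb on either side and among all other tested genes with a position, for each pair of genotypes; numbers over the bars are genes called and tested. The stretch holds the 10 genes chosen on these values, so its bars (10, 6 and 7 of 42) are partly set by that choice.

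Other genes of the pathways and families of the 10 were counted in the same fit, in lists that total 77 tested genes. Being called was part of the rule that named single genes of these lists below, so nothing is read from their FDRs. In dKO against WT, 7 were higher and 12 lower on HFD (backgrounds 12.9% and 11.6%), and 18 were higher and 19 lower on chow (backgrounds 24.4% and 21.9%). In dKO against IL4KO, 1 was higher and 2 were lower on HFD (backgrounds 0.946% and 1.56%) and 19 were higher and 17 lower on chow (backgrounds 23.0% and 22.2%). In IL4KO against WT, 3 were higher and 0 lower on HFD by edgeR (backgrounds 1.73% and 1.29%; 14 in either direction at an unadjusted p below 0.05, and 6 by DESeq2), and 5 were higher and 4 lower on chow (backgrounds 5.93% and 3.68%).

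The renin-angiotensin system had 13 tested genes beside Ren1. In IL4KO against WT, with Ren1 nearly absent in IL4KO, edgeR called 0 of the 13 on HFD (background 3.02%) and 0 on chow (background 9.61%). At an unadjusted p below 0.05 there were 0 on HFD and 1 on chow, and DESeq2 called 0. In dKO_chow against WT_chow, 2 of the 13 were called higher and 4 lower (backgrounds 24.4% and 21.9%). The substrate gene Agt, abundant in liver, was among the lower ones, at 557 ± 27.7 CPM in dKO_chow and 703 ± 73.0 CPM in WT_chow (edgeR FDR 0.00542). Enpep encodes aminopeptidase A, which shortens angiotensin II, and was the 1 gene of the list lower in dKO on both diets. It had 63.1 ± 6.89 CPM in dKO_HFD, 89.0 ± 19.6 CPM in IL4KO_HFD and 103 ± 4.20 CPM in WT_HFD, and 78.8 ± 8.58 CPM in dKO_chow, 128 ± 2.28 CPM in IL4KO_chow and 122 ± 12.8 CPM in WT_chow. Its log2 differences between dKO and WT were -0.70 (edgeR FDR 9.74e-05) on HFD and -0.63 (edgeR FDR 7.09e-05) on chow.

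Beside Ctse, 14 cathepsins and related aspartic proteases were tested. In dKO_HFD against WT_HFD, 1 was higher and 4 were lower (backgrounds 12.9% and 11.6%). In dKO_chow against WT_chow, 4 were higher and 2 lower (backgrounds 24.4% and 21.9%). Ctsz, a lysosomal carboxypeptidase gene, was lower in dKO_HFD, at 205 ± 20.3 CPM against 257 ± 17.4 CPM in WT_HFD, and higher in dKO_chow, at 276 ± 22.2 CPM against 214 ± 5.88 CPM in WT_chow. In IL4KO against WT, 1 of the 14 was higher on HFD (background 1.73%) and 1 lower on chow (background 3.68%). The p38 and MK2 pathway had 17 tested genes beside Mapkapk2. Mapk14, which encodes p38 alpha, the kinase upstream of MK2, was higher in both knockouts than in WT on both diets, with 131 ± 10.1 CPM in dKO_HFD, 124 ± 17.6 CPM in IL4KO_HFD and 98.8 ± 2.80 CPM in WT_HFD, and 123 ± 4.86 CPM in dKO_chow, 124 ± 4.95 CPM in IL4KO_chow and 96.6 ± 9.40 CPM in WT_chow. Zfp36l1, which encodes a protein that destabilises messenger RNAs, was lower in dKO than in WT on both diets, by log2 differences of -0.58 on HFD and -0.43 on chow.

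Among the 13 tested ternary complex, ETS and SRF genes beside Elk4, Egr1, an immediate early gene, was lower in dKO than in WT on both diets (17.9 ± 12 CPM in dKO_HFD and 53.4 ± 34.1 CPM in WT_HFD, 16.6 ± 7.19 CPM in dKO_chow and 46.3 ± 26.7 CPM in WT_chow). Of the 4 other Sox genes, Sox9, a marker of bile duct cells, was higher in dKO than in WT and IL4KO on both diets, at 9.69 ± 5.52 CPM in dKO_HFD, 3.84 ± 0.198 CPM in IL4KO_HFD and 4.56 ± 0.304 CPM in WT_HFD. It moved with the summed cholangiocyte markers given above, a list that holds Sox9. No Sox gene beside Sox13 was called in IL4KO against WT by edgeR (backgrounds 3.02% on HFD and 9.61% on chow). Of these 4, 0 had an unadjusted p below 0.05 on each diet, and DESeq2 called 0. Of the 3 other liprins, Ppfibp2 was higher in dKO than in WT on both diets, at 27.3 ± 1.48 CPM in dKO_HFD and 20.6 ± 3.01 CPM in WT_HFD, and 26.8 ± 1.92 CPM in dKO_chow and 18.2 ± 2.164 CPM in WT_chow. In the smaller lists, Ripk2, of the RIP-like kinases, was higher in dKO than in WT on both diets (8.80 ± 0.529 CPM in dKO_HFD and 6.67 ± 0.415 CPM in WT_HFD). The last lists were M20 peptidases and N-acyl amino acid genes (4 tested), PCTAIRE kinases (4) and Golgi transport proteins (Golt1b). Of these, 2 genes of the M20 list and 1 PCTAIRE kinase were lower in dKO_chow than in IL4KO_chow (background 22.2%). Golt1b was higher there, at 5.86 ± 0.198 CPM in dKO_chow and 3.72 ± 0.861 CPM in IL4KO_chow (edgeR FDR 0.0169).

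The genes whose pattern was most like that of each of the 10, by correlation of log2 CPM over the 23 libraries, were looked for outside the 10 and without predicted genes. Within the 10, Ctse and Ren1 correlated more closely with each other (0.948), and Ren1 also with Pm20d1 (0.908), than with the outside genes named next for each. Of the genes outside, none of the closest 2 per gene lay in the stretch from Il10 to Ppfia4. Ctse was nearest to Serpinb8 (r = 0.914), also on chromosome 1 but at chr1:107590006-107610484, and to Dynlt1b (0.892) on chromosome 17. Ren1 was nearest to Tmem181b-ps (0.899) and Dynlt1b (0.891), which lie side by side on chromosome 17. Sox13 and Ppfia4 both had Insc, on chromosome 7, among their nearest (0.945 and 0.934), and Ppfia4 also Card10 (0.940) on chromosome 15. Golt1a was nearest to Cyp17a1 (0.922) and As3mt (0.911), both on chromosome 19. Pm20d1 was nearest to Ulk2 (0.920) on chromosome 11, Elk4 to Tet3 (0.868) on chromosome 6, Cdk18 to Dhdh (0.937) on chromosome 7, and Dstyk to Scarb2 (0.899) on chromosome 5. These correlations include the differences between groups and are descriptions.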

How the data were processed

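Liver RNA of 23 mice in 6 groups was sequenced from stranded mRNA libraries, per the labels' protocols. Per the submitters' processing notes, bcl2fastq 2.16, TopHat2 2.0.8, Partek and the mm10 build were used. The authors deposited 1 table of estimated counts per gene and 1 of log2 expression values per gene. No source used here states the annotation, the counting settings or how the log2 values were made. The labels name no batch. Groups follow the labels, which give separate mice.

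The estimated counts, rounded to whole numbers, were analysed in R 4.3.3 with edgeR 4.0.16 (TMM, filterByExpr by group, robust quasi-likelihood, 6 group means, 17 residual degrees of freedom). P-values of 12 comparisons were adjusted by Benjamini-Hochberg over 12891 genes, with a threshold of 0.05, and the procedure was checked on simulated counts. CPM values use TMM-scaled library sizes. Alternatives were DESeq2 1.42.0, limma 3.58.1 on the deposited log2 values, other scaling, filter and sample choices, and leaving out each library. Positions come from GENCODE M21 (GRCm38), found for 23355 symbols.

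The 10 genes and all lists were chosen with earlier results of these data known. Neighbours were named if called on both diets in dKO against IL4KO without overlap, list genes if called, at most 3 a list, and lookalikes as the 2 highest correlations over libraries outside the 10 genes. Predicted genes were counted but not named under this rule. Replicate pairs correlated at 0.950 to 0.990, and no 2 libraries agreed within sampling noise. Bounds against groups without counts use 3 counts over the group, and intervals are 95% exact.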

Additional observations from a re-analysis of the deposited data

Results flagged for a closer look

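A gap test of the highest and lowest library was run in 48 sets of 4 libraries, and chance flags about 1 in 20 such sets. It marked 2 libraries. Golt1a was at 8.43 CPM in dKO_HFD replicate 1, against 11.4 to 11.8 CPM in the other dKO_HFD libraries. Elk4 was at 8.27 CPM in dKO_HFD replicate 3, against 7.03 to 7.23 CPM in the others.

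Diet effects (log2, HFD over chow) differed between genotypes by the interaction term of the edgeR fit in 7 cases, and these differences rest on values that chose the genes. Dstyk differed by 0.42 between dKO and WT and by 0.51 between dKO and IL4KO. Pm20d1 differed by 0.44 between dKO and WT and by 0.54 between dKO and IL4KO. Elk4 differed by 1.04, Cdk18 by 0.70 and Ppfia4 by -1.92 between dKO and IL4KO. The Ppfia4 value was -0.95 without IL4KO_HFD replicate 2, and was not past the threshold when any 1 of 9 libraries was left out. The Dstyk difference from WT was not past it when any 1 of 10 libraries was left out, and that from IL4KO without IL4KO_HFD replicate 2 (0.42).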

How the results depend on the processing

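The counts of genes called with one sign on both diets were 5 (dKO against WT), 3 (dKO against IL4KO) and 6 (IL4KO against WT) under another scaling, no filter, DESeq2, limma on the log2 values and fits of 2 genotypes. Leaving out 1 library gave 4 to 5, 3 and 6. With only the compared groups in the fit, 0 of the 10 genes were called in dKO_HFD against IL4KO_HFD by edgeR (5 at an unadjusted p below 0.05) and 1 in IL4KO_HFD against IL4KO_chow. In those fits no gene was thus called on both diets in dKO against IL4KO. Ctse was then also not called in dKO_HFD against WT_HFD, and so dropped out of the genes called on both diets in dKO against WT. DESeq2 called 1 gene in the difference of diet effects between IL4KO and WT. Leaving out 1 library moved the IL4KO diet count to 0 to 4, and the counts of diet effect differences to 1 to 4 (dKO and WT) and 3 to 5 (dKO and IL4KO). The cause was not tested. Of all genes, 323 were called in dKO_HFD against IL4KO_HFD, 589 by DESeq2, 4 with the compared groups alone and 39 to 1241 without 1 library. In the same way IL4KO_HFD against WT_HFD had 389, 95 with the compared groups alone and 185 to 631 without 1 library, and IL4KO_HFD against IL4KO_chow had 1170, 528 and 236 to 2030. The IL4KO and WT diet effects differed for 6 genes, 68 by DESeq2, 21 and 11 by the compared groups and limma. Within 5 Mb of Il10, 78 genes were tested. Of these, 18 were called on both diets in dKO against WT, 7 in dKO against IL4KO and 8 in IL4KO against WT. From 130 to 140 Mb, a window added after seeing the data, the counts in the same order were 17, 6 and 11 of 81. These windows hold more genes than the stretch to Ppfia4. Both hold the 10 genes chosen on these values, so nothing is read from these counts. Over all alternatives, calls of the 10 genes were lost in 19 and gained in 8 of 376 diet effects, lost in 14 and gained in 3 of 818 genotype differences, and lost in 22 and gained in 4 of 610 differences of diet effects. Of the genotype differences and differences of diet effects, 22 moved by more than the spread, and no called value changed sign. Depth limits Ctse and Ren1 in IL4KO, Ppfia4 in all groups and, of the neighbours named, Nckap5 in both knockouts. No paired analysis was possible because replicate numbers follow accession order only.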
